A study of Mus musculus with 18 samples.

Results

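The thick ascending limb of Henle's loop runs from the outer medulla into the cortex, and 10 genes that were higher in its cortical part (CTAL) than in its medullary part (MTAL) of wild-type mice, or whose level in *Cldn10* knock-out mice was raised more in MTAL than in CTAL, were followed in every pool. They were picked on these very contrasts by name, with no numerical threshold, out of 55401 genes in the count table, of which 33307 had a count in at least 1 pool. The members were *Wfdc2*, *Mfge8*, *Pigr*, *Slc22a17*, *Tmem52b*, *Gm44120*, *Eva1b*, *Uroc1*, *Mapk4* and *C130074G19Rik*. All 10 were higher in WT CTAL than in WT MTAL and higher in cKO MTAL than in WT MTAL, with no overlap between the pools. These differences bore on the choice of members and are given as a description and not as a test. The share of all genes without such overlap was not counted. The share of the WT segment difference that cKO MTAL reached differed widely among them, from 18.4% for *Gm44120* to 199% for *Eva1b* on mean CPM.

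Both parts of the limb reabsorb sodium chloride through the cotransporter NKCC2, encoded by *Slc12a1*, and dilute the tubular fluid. Claudin-10, encoded by *Cldn10*, is a tight junction protein that forms a paracellular sodium pathway and is the main claudin of the medullary part, whereas the cortical part relies more on claudin-16 and claudin-19 for paracellular calcium and magnesium reabsorption. The members are not one pathway: they encode secreted proteins, membrane receptors, small membrane proteins, a liver-type catabolic enzyme, an atypical kinase, an uncharacterised protein and a transcript of unknown status.

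RNA was sequenced from 18 pools of tubules (WT CTAL, n = 5; cKO CTAL, n = 5; WT MTAL, n = 5; cKO MTAL, n = 3), each microdissected from the liberase-treated kidney of a different adult male mouse of C57BL/6J label. All mice carried *Cldn10* fl/fl alleles, the WT mice being littermates without Cre and the cKO mice (*Cldn10* fl/fl; Ksp-Cre) carrying a Cre transgene driven by the Ksp-cadherin promoter, which acts along the distal nephron and not in the thick limb alone. The knock-out was partial, cKO medullas held calcium deposits that hampered dissection, the study left 2 cKO MTAL pools out at quality control, and it left a cKO CTAL pool out for its *Cldn10* level. Levels are given as CPM, counts scaled to a library of 1e+06 after TMM normalization. *Cldn10*, the targeted gene, ran from 384 to 579 CPM in the WT CTAL pools and from 156 to 185 CPM in the cKO CTAL pools. Its range was 653 to 810 CPM in WT MTAL and 151 to 295 CPM in cKO MTAL, so that no cKO pool overlapped a WT pool. *Slc12a1* was between 11420 and 16150 CPM in all 18 pools.

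Library totals ran from 10824299 to 62339939 estimated counts, and the 3 cKO MTAL libraries, at 13275232 to 19608753, were among the shallower ones. One library, WT CTAL replicate 1, carries a knock-out genotype label but a wild-type pool name and is listed as WT by the study, and it was used as WT. *Xist*, which is transcribed from the inactive X chromosome, stood at 6.50 to 8.77 CPM in 7 pools (2 WT CTAL, 1 cKO CTAL, 4 WT MTAL) and at no more than 0.738 CPM in the other 11, although 4 Y-linked genes summed to 87.8 to 127 CPM in every pool. cKO MTAL replicate 18 had the most tubular injury transcripts, with 9040 CPM over 10 markers against 2180 and 2280 CPM in its group. cKO MTAL replicate 20 had the most principal cell transcripts, with 1250 CPM over 11 markers against 282 and 338 CPM.

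The secreted members were *Wfdc2* and *Mfge8*. *Wfdc2* (ENSMUSG00000017723.11, GRCm38 chr2:164562413-164568510, + strand) encodes HE4, a small secreted protein with WAP domains, and was the most abundant member per transcript length, at 191 ± 40.2 TPM (transcripts scaled to length and library, SD, n = 5) in WT MTAL and 617 ± 116 TPM (SD, n = 3) in cKO MTAL. Its level was 332, 295, 360, 280 and 336 CPM in the WT CTAL pools and 360, 364, 365, 489 and 540 CPM in the cKO CTAL pools. It was 130, 124, 89.4, 102 and 110 CPM in WT MTAL and 290, 318 and 423 CPM in cKO MTAL. The cKO MTAL pools were clear of the WT MTAL pools and within the range of the CTAL pools. The WT segments differed by 1.53 ± 0.11 (log2, SE) and the MTAL genotypes by 1.64 ± 0.14 (log2, SE), so that cKO MTAL reached 111 ± 33.5% (SD, n = 3) of the segment difference, with 85.2%, 98.8% and 149% in its pools. The pool at 149% was replicate 20, the one with the most principal cell transcripts, and without it the share was 92.0%; the part of these transcripts in the value was not tested. Of 20 other WAP domain genes, only *Wfdc15b* passed the filter on low counts, and its cKO MTAL over WT MTAL difference was -0.15 ± 0.16 (log2, SE, edgeR adjusted p = 0.624).

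*Mfge8* (ENSMUSG00000030605.15, chr7:79133768-79149060, - strand) encodes lactadherin, which bridges phosphatidylserine on dying cells to integrins. Its pools stood at 126, 144, 140, 108 and 127 CPM in WT CTAL, and at 169, 145, 172, 154 and 169 CPM in cKO CTAL. In MTAL they stood at 66.2, 53.7, 52.5, 74.4 and 58.7 CPM (WT) and at 134, 176 and 173 CPM (cKO). It was the one member whose 5 cKO CTAL pools all lay above the 5 WT CTAL pools, though by less than 1 CPM at the closest pair, and the cKO MTAL pools overlapped the cKO CTAL pools. The WT segment difference was 1.08 ± 0.11 (log2, SE), and cKO MTAL reached 147 ± 35.1% (SD, n = 3) of it, passing the WT CTAL mean in each pool (107%, 170% and 165%). Of 14 other genes of apoptotic cell uptake, 10 passed the filter on low counts in the MTAL genotype comparison. Lactadherin binds integrins made of the subunits encoded by *Itgav* with *Itgb3* or *Itgb5*. By edgeR's quasi-likelihood test *Itgav* and *Itgb3* were higher in cKO MTAL (log2 difference 0.60 ± 0.11, adjusted p = 0.00446, and 1.66 ± 0.45, adjusted p = 0.0346, both SE), and *Dock1*, an engulfment adaptor, was lower (-0.52 ± 0.12, SE, adjusted p = 0.0147), against 4.44% of 12060 genes higher and 2.57% lower. *Itgb5* (164 CPM in WT MTAL and 171 CPM in cKO MTAL) differed by 0.06 ± 0.12 (log2, SE, adjusted p = 0.790). *Itgav* was also higher (0.49 ± 0.10, SE, adjusted p = 0.00381) and *Dock1* lower (-0.47 ± 0.10, SE, adjusted p = 0.00699) in WT CTAL than in WT MTAL.

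The members with a receptor function were *Pigr* and *Slc22a17*. *Pigr* (ENSMUSG00000026417.13, chr1:130826684-130852249, + strand) encodes the receptor that carries polymeric immunoglobulins A and M across epithelia. It was found at 140, 137, 119, 87.6 and 100.2 CPM in WT CTAL and at 182, 109, 167, 130 and 194 CPM in cKO CTAL. WT MTAL pools had 27.6, 23.4, 16.6, 26.4 and 25.1 CPM, and cKO MTAL pools had 62.2, 108 and 61.3 CPM. Among the cKO MTAL pools, replicate 18 lay within the WT CTAL range, and the other two lay between the WT segments. The WT segments differed by 2.29 ± 0.15 (log2, SE), and cKO MTAL reached 57.4 ± 28.8% (SD, n = 3) of the difference, or 40.8% without replicate 18, the pool with the most injury transcripts. Of 5 other genes of immunoglobulin transport, 4 were in the tables and only *Fcgrt*, the neonatal Fc receptor, passed the filter; its cKO MTAL over WT MTAL difference of -0.21 ± 0.18 (log2, SE) had an adjusted p of 0.517 by edgeR.

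*Slc22a17* (ENSMUSG00000022199.12, chr14:54906304-54913132, - strand) encodes a receptor for lipocalin 2. Its values were 79.2, 65.5, 76.4, 72.5 and 93.1 CPM in WT CTAL and 70.2, 95.2, 99.1, 82.7 and 113 CPM in cKO CTAL. They were 41.2, 23.8, 22.2, 21.6 and 28.6 CPM in WT MTAL and 78.4, 71.4 and 92.4 CPM in cKO MTAL. The cKO MTAL pools overlapped both CTAL groups and lay above all WT MTAL pools. The highest WT MTAL pool (replicate 11) and the highest cKO MTAL pool (replicate 20) were also those with the most *Aqp2*, the principal cell water channel gene, at 147 and 551 CPM, and the part of such cells in the values was not tested. cKO MTAL reached 107 ± 21.5% (SD, n = 3) of a WT segment difference of 1.5 ± 0.16 (log2, SE).

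The ligand gene *Lcn2* had another pattern. It stood at 5.33, 4.90, 6.45, 6.44 and 8.18 CPM in WT CTAL, 84.6, 7.51, 6.70, 8.62 and 27.4 CPM in cKO CTAL, 6.47, 13.6, 12.5, 8.0 and 13.6 CPM in WT MTAL, and 22.1, 282 and 45.9 CPM in cKO MTAL. It rose in cKO MTAL by 3.44 ± 0.55 (log2, SE, edgeR adjusted p = 0.00135), and its highest pool, replicate 18, was the one in which *Slc22a17* was lowest among the cKO MTAL pools. In cKO CTAL the highest *Lcn2* pool, replicate 2, was likewise the lowest *Slc22a17* pool. Of the other 3 genes of the lipocalin list (*Lrp2*, *Cubn* and *Slc22a23*), none passed the test in any of the 4 comparisons made between genotypes or segments.

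**Figure D1:**
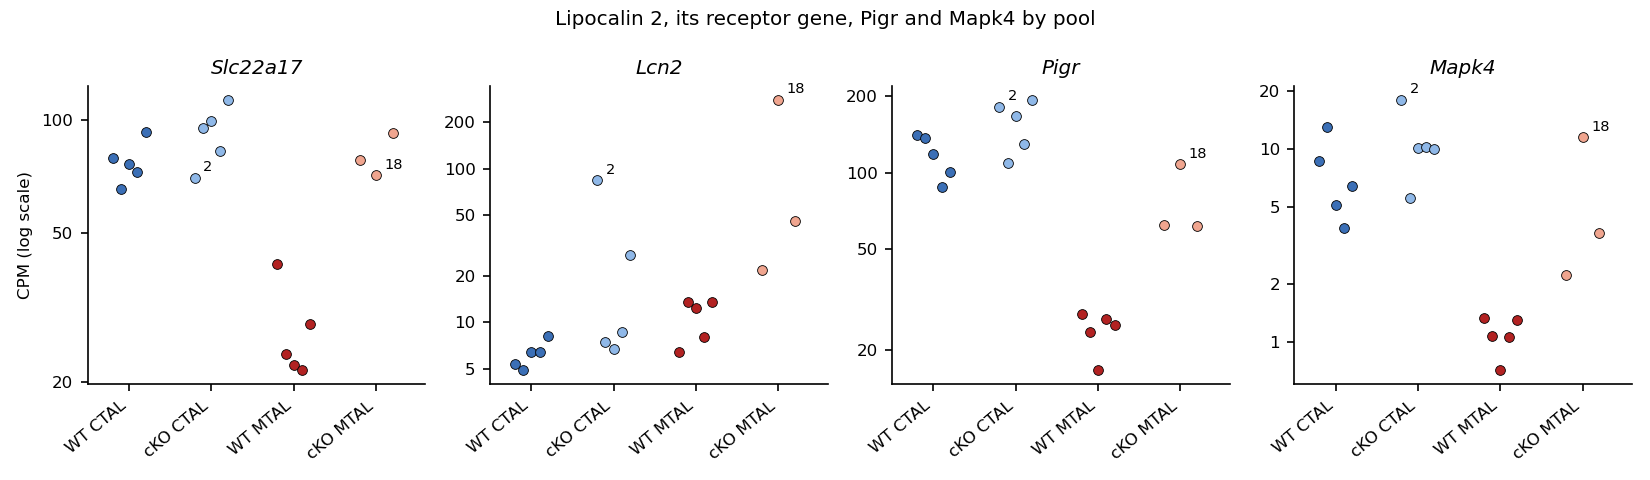
Normalized counts (CPM, log scale, a separate scale in each panel) of *Slc22a17*, its ligand gene *Lcn2*, *Pigr* and *Mapk4*, 1 point per pool in each group; the numbers 2 and 18 mark cKO CTAL replicate 2 and cKO MTAL replicate 18. *Lcn2* was highest in replicate 18 at 282 CPM, where *Pigr* and *Mapk4* were also the highest of cKO MTAL and *Slc22a17*, at 71.4 CPM, the lowest.

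The small membrane proteins were encoded by *Tmem52b* and *Eva1b*. *Tmem52b* (ENSMUSG00000030160.7, chr6:129512555-129519227, + strand), a little characterised single-pass protein, was the second most abundant member per transcript length, at 296 ± 65.5 TPM (SD, n = 5) in WT CTAL. Its pools had 665, 434, 549, 392 and 517 CPM in WT CTAL, and 788, 497, 729, 717 and 629 CPM in cKO CTAL. In MTAL they had 127, 92.3, 91.0, 89.6 and 109 CPM (WT) and 199, 244 and 232 CPM (cKO). The cKO MTAL pools formed a level of their own, above WT MTAL and below every CTAL pool. They reached 30.1 ± 5.77% (SD, n = 3) of the WT segment difference of 2.33 ± 0.14 (log2, SE), or 49.2% when the share was taken on the log2 scale.

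*Gm44120* (ENSMUSG00000108290.1, chr6:129522562-129525584, + strand), annotated as a transcript whose existence awaits experimental proof (TEC), begins 3334 bases after the end of *Tmem52b* on the same strand. Its pools had 104, 66.9, 97.6, 75.1 and 70.1 CPM in WT CTAL and 90.0, 71.9, 94.1, 119 and 76.3 CPM in cKO CTAL, against 19.7, 11.7, 15.9, 16.8 and 16.7 CPM in WT MTAL and 25.4, 33.3 and 26.5 CPM in cKO MTAL. As for its neighbour, cKO MTAL lay between the WT segments without overlap to either, and it reached 18.4 ± 6.37% (SD, n = 3) of the WT difference of 2.37 ± 0.16 (log2, SE), the smallest share of the 10, or 34.6% on the log2 scale. The ratio of *Tmem52b* to *Gm44120* counts was 6.22 ± 0.832 (SD, n = 5) in WT CTAL, 7.54 ± 1.08 (SD, n = 5) in cKO CTAL, 6.40 ± 0.983 (SD, n = 5) in WT MTAL and 7.97 ± 0.724 (SD, n = 3) in cKO MTAL, with overlapping ranges in all groups. The count at one locus thus ran with that at the other in all 4 groups, and deviations from the group means were correlated (Pearson's r = 0.719 over 18 pools, a description, since both counts come from the same libraries). Whether reads at *Gm44120* belong to longer *Tmem52b* transcripts was not tested, so these 2 members may not be separate.

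*Eva1b* (ENSMUSG00000050212.4, chr4:126147744-126149875, + strand) encodes another single-pass protein. Its values were 24.7, 37.1, 30.0, 26.2 and 28.4 CPM in WT CTAL and 57.9, 35.5, 34.8, 32.3 and 43.5 CPM in cKO CTAL. They were 12.3, 14.1, 12.2, 15.4 and 13.6 CPM in WT MTAL and 40.8, 47.8 and 45.8 CPM in cKO MTAL. It was the only member whose 3 cKO MTAL pools all lay above all 5 WT CTAL pools, the difference being 0.63 ± 0.15 (log2, SE). On the WT segment difference of 1.11 ± 0.14 (log2, SE), cKO MTAL reached 199 ± 22.9% (SD, n = 3), or 155% on the log2 scale and 190% from TPM, on which *Mfge8* was higher, at 217%. An antisense RNA gene, *Gm12946*, ends 8 bases before *Eva1b* on the same strand, and reads of both may be hard to separate. Its relative *Eva1a*, the 1 gene of 3 relatives of *Eva1b* and *Tmem52b* that passed the filter, differed between cKO MTAL and WT MTAL by 0.20 ± 0.19 (log2, SE, edgeR adjusted p = 0.570).

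The remaining members were an enzyme gene, a kinase gene and an uncharacterised gene. *Uroc1* (ENSMUSG00000034456.15, chr6:90333284-90364551, + strand) encodes urocanase of histidine degradation, an enzyme best known from liver. It was low, at 11.8, 9.98, 11.2, 6.48 and 9.88 CPM in WT CTAL and 9.08, 11.3, 13.6, 13.8 and 12.5 CPM in cKO CTAL. WT MTAL had 1.33, 2.0, 1.99, 1.12 and 0.802 CPM, and cKO MTAL had 4.56, 5.73 and 3.85 CPM. All 3 cKO MTAL pools fell into the gap between the WT segments, at 38.7 ± 11.3% (SD, n = 3) of the difference of 2.76 ± 0.30 (log2, SE), or 61.4% on the log2 scale. Of 4 other genes of the pathway, only *Amdhd1*, which acts just after urocanase, passed the filter in MTAL, and the other 3 were not tested. *Amdhd1* was lower in WT CTAL than in WT MTAL, by -1.51 ± 0.30 (log2, SE, edgeR adjusted p = 0.00463), and its cKO MTAL over WT MTAL difference of -1.11 ± 0.39 (log2, SE) had an adjusted p of 0.0969.

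*Mapk4* (ENSMUSG00000024558.12) encodes ERK4, an atypical MAP kinase that acts on the kinase MK5. It was the least abundant member in WT MTAL also per transcript length (0.376 ± 0.059 TPM, SD, n = 5), with pools at 1.33, 1.07, 0.712, 1.06 and 1.30 CPM, and stood at 2.21, 11.5 and 3.67 CPM in cKO MTAL. CTAL pools had 8.60, 13, 5.12, 3.88 and 6.41 CPM (WT) and 18, 5.55, 10.1, 10.2 and 9.93 CPM (cKO). cKO MTAL replicate 18 alone was at the CTAL level, and the others were below every WT CTAL pool. The share reached was 74.5 ± 79.3% (SD, n = 3), with 17.6%, 165% and 40.8% in the pools, and it was 29.2% without replicate 18. The highest pool of *Mapk4* in cKO CTAL was replicate 2, which also had the most injury transcripts of that group (4870 CPM against 1810 to 2850 CPM); the part of injury in these values was not tested. With 2 pools over 3 CPM, *Mapk4* did not pass the filter of the MTAL genotype comparison, and no fitted value is given there. Genes annotated on the opposite strand, *Gm9925* and *D730045A05Rik*, overlap it, and with the strand used in counting not given in the sources used here their reads may be mixed. Of 7 other atypical MAP kinases and partners, all passed the filter, and 1 passed a test: *Mapk15* was lower in WT CTAL than in WT MTAL (-1.0 ± 0.14, log2, SE, edgeR adjusted p = 0.000238).

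*C130074G19Rik* (ENSMUSG00000039349.5, chr1:184871926-184883218, - strand) is a protein-coding gene without a known function. It stood at 261, 182, 248, 206 and 227 CPM in WT CTAL and at 310, 248, 268, 269 and 306 CPM in cKO CTAL. In WT MTAL it stood at 77.5, 57.3, 57.6, 72.8 and 68.4 CPM, and in cKO MTAL at 138, 185 and 207 CPM. Of the cKO MTAL pools, 2 were within the WT CTAL range and 1 was below it, giving 69.6 ± 22.3% (SD, n = 3) of the WT difference of 1.75 ± 0.11 (log2, SE).

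**Figure D2:**
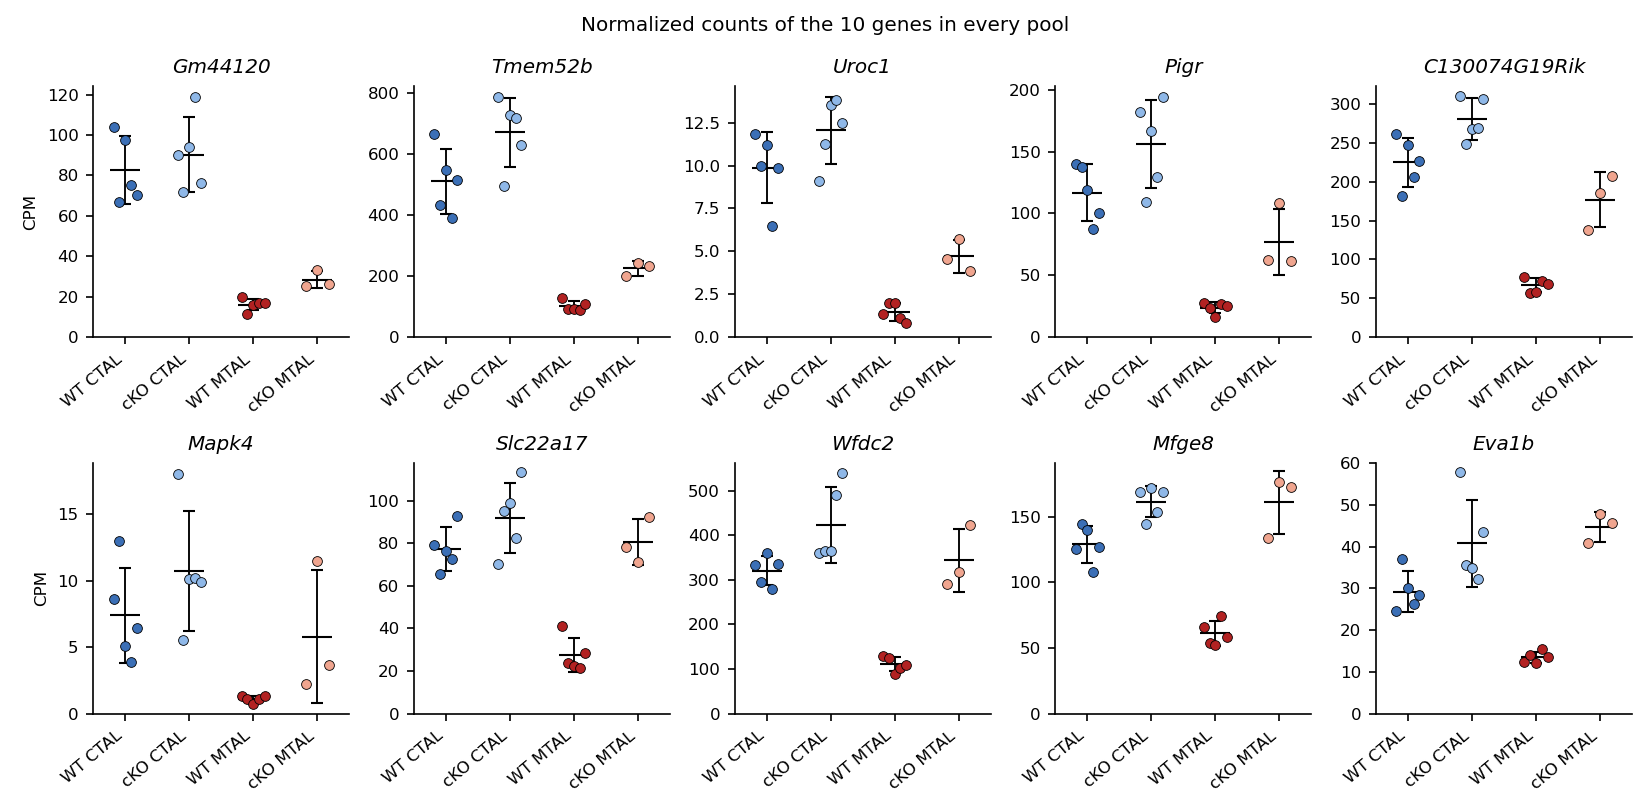
Normalized counts (CPM, 1 point per pool, a separate scale from 0 in each panel) of the 10 members in WT CTAL, cKO CTAL, WT MTAL and cKO MTAL, in the order of the share reached; the horizontal line is the group mean and the bars are the SD. The WT MTAL pools were the lowest in every panel, and the cKO MTAL pools went from just above them (*Gm44120*, 25.4 to 33.3 CPM) to above WT CTAL (*Eva1b*, 40.8 to 47.8 CPM).

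From group mean CPM, the shares of 3 members were under 50% (*Gm44120*, *Tmem52b*, *Uroc1*), those of 3 were between 50% and 100% (*Pigr*, *C130074G19Rik*, *Mapk4*) and those of 4 were over 100% (*Slc22a17*, *Wfdc2*, *Mfge8*, *Eva1b*). Their median was 72.1%, and it moved between 53.8% and 92.4% when single pools were left out, the lowest value being that without cKO MTAL replicate 18 and the highest that without replicate 16. It was 76.1% without WT CTAL replicate 1, the pool with conflicting labels, and 82.2% without the 7 pools with *Xist*, where *Eva1b* went to 239%. The latter setting left WT MTAL replicate 13 alone in its group. The spread between the 3 cKO MTAL pools left *Pigr*, *C130074G19Rik*, *Mapk4*, *Slc22a17* and *Wfdc2* without a full order. Among them, every pool put *C130074G19Rik* below *Slc22a17* and *Wfdc2*, and *Pigr* below *Wfdc2*. Every pool also put *Gm44120*, *Tmem52b* and *Uroc1* below *Mfge8* and *Eva1b*. Both differences in a share use the WT MTAL pools, so a low WT MTAL value enters both. In pooled tubules, fewer cells with a transcript and less of it per cell cannot be told apart, so that an intermediate level may be an average over unlike tubules.

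**Figure D3:**
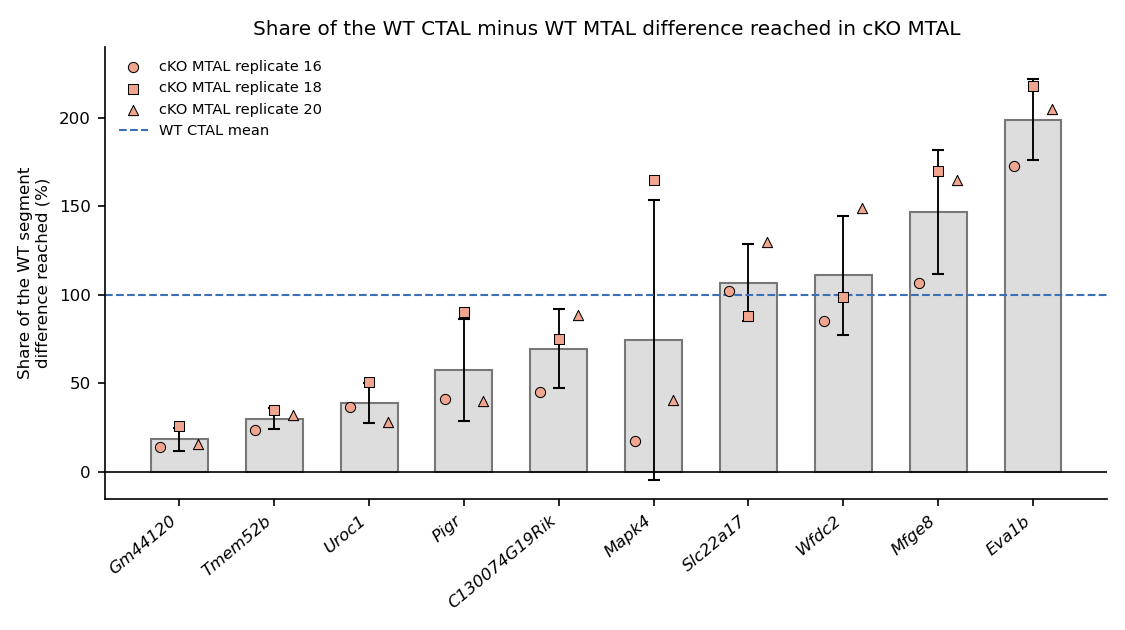
Share of the mean WT CTAL minus WT MTAL difference (%, from CPM) that cKO MTAL reached for each member; bars start at 0 and give the value from group means, error bars the SD over the 3 pools, and symbols the pools, with the WT CTAL mean at 100%. *Mapk4* ran from 17.6% to 165% between pools, while *Gm44120* (14% to 25.7%) and *Eva1b* (173% to 218%) stayed apart.

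Calls by edgeR on the contrasts that picked the members follow from that choice. Their counts, with the shares of all genes beside them, are a description and no evidence of enrichment. All 10 passed as higher in WT CTAL than in WT MTAL (adjusted p under 0.05), where 4.10% of 11650 genes were higher and 2.76% lower. All 9 that were tested passed as higher in cKO MTAL than in WT MTAL, where 4.44% of 12060 genes were higher and 2.57% lower. For 6 of 10 the genotype effect was larger in MTAL than in CTAL by a test of the difference, which 0.262% of 12586 genes passed, and the differences of effects ran from 0.70 (*Gm44120*) to 1.86 (*Mapk4*) on the log2 scale. Against WT CTAL, cKO MTAL was above for 4 members and below for 6, with fitted differences between -1.54 for *Gm44120* and 0.63 for *Eva1b* (log2).

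The segment difference that remained within the knock-out was asked from pools that the WT segment contrast did not use, although the cKO pools enter the larger-rise criterion, which favours a small difference here. By edgeR's quasi-likelihood test 5 of 10 members were higher in cKO CTAL than in cKO MTAL, against 0.631% of 12044 genes, and 3 of them by a log2 difference of at least 1, against 0.316%. These were *Gm44120* (1.63 ± 0.17, SE, adjusted p = 0.000436), *Tmem52b* (1.54 ± 0.15, SE, adjusted p = 0.000368) and *Uroc1* (1.32 ± 0.24, SE, adjusted p = 0.0182), followed by *Pigr* (0.98 ± 0.22, SE, adjusted p = 0.0493) and *C130074G19Rik* (0.63 ± 0.14, SE, adjusted p = 0.0430). For the same 5 members all cKO CTAL pools lay above all cKO MTAL pools, as they did for 5.98% of the genes tested. The other 5 did not pass: *Mapk4* differed by 0.85 ± 0.49, *Wfdc2* by 0.26 ± 0.17, *Slc22a17* by 0.15 ± 0.16, *Mfge8* by -0.03 ± 0.11 and *Eva1b* by -0.17 ± 0.18 (log2, SE), and their adjusted p ran from 0.403 to 0.910. The median over the members was 0.74, against -0.03 over all genes. Over the 194 genes that passed as higher in WT CTAL by a log2 difference of at least 1, it was 0.63. *Tmem52b* and *Gm44120* passed with each of the 8 cKO pools left out in turn, *Uroc1* with 5 of 8 (not without cKO CTAL replicate 7 or 9 or cKO MTAL replicate 16), and *Pigr* and *C130074G19Rik* with 2 of 8 each (*Pigr* without cKO CTAL replicate 4 or cKO MTAL replicate 18, *C130074G19Rik* without cKO MTAL replicate 18 or 20), at adjusted p of up to 0.164. Without cKO CTAL replicate 2, the 1 cKO pool with *Xist*, 3 members passed. *Mapk4* passed only without cKO MTAL replicate 18 (1.81, adjusted p = 0.0323).

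In log2 terms the members kept a median of 33.4% of their WT segment difference within the knock-out, or between 23.1% (without cKO MTAL replicate 16) and 45.1% (without cKO MTAL replicate 18) with single pools left out. Of all genes, 194 passed as higher in WT CTAL with a log2 difference of at least 1 and were tested in both genotypes, and these kept a median of 42.0%, with quartiles of 21.1% and 60.4%. That median lay inside the range just given for the members. *Gm44120* (68.9%) and *Tmem52b* (66.1%) kept the most, followed by *Uroc1* (47.7%), *Pigr* (42.9%), *C130074G19Rik* (35.7%), *Mapk4* (31.1%), *Wfdc2* (17.2%) and *Slc22a17* (10%). *Mfge8* (-2.96%) and *Eva1b* (-15.4%) kept none. On the linear CPM scale the median kept was 72.1%. *Tmem52b*, for instance, stood at 672 ± 113 against 225 ± 23.6 CPM in the cKO segments and at 511 ± 106 against 102 ± 16.3 CPM in the WT segments (SD), a smaller ratio but not a smaller gap.

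**Figure D4:**
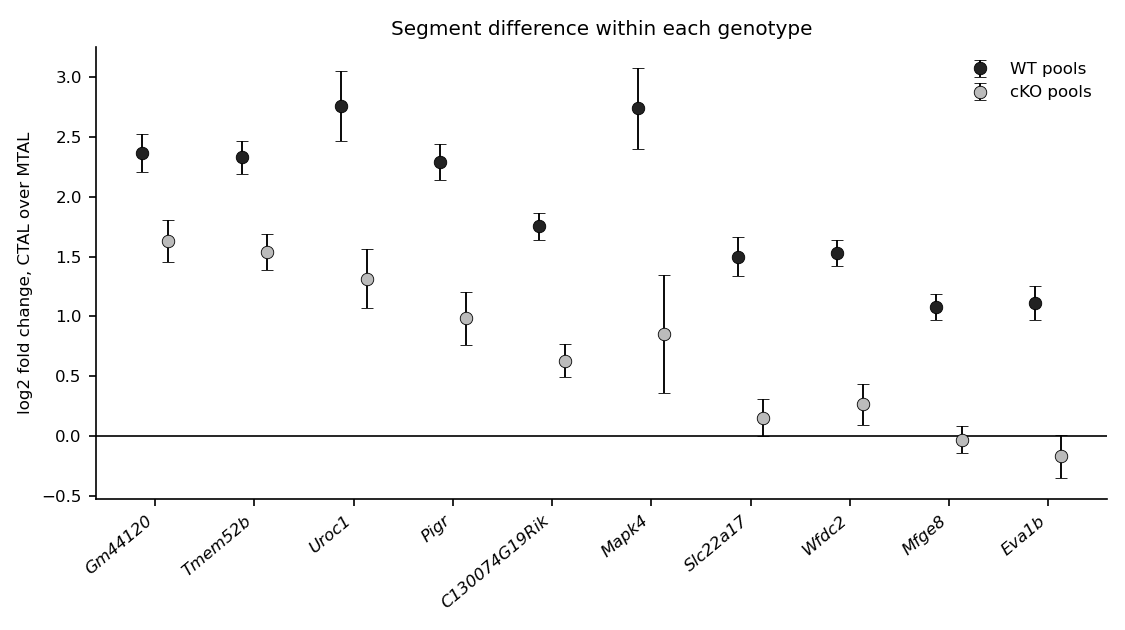
Fitted log2 fold change of CTAL over MTAL (± SE) for each member in WT pools (black, 5 against 5) and in cKO pools (grey, 5 against 3), in the order of the share reached. Every grey point was below its black point, and those of *Slc22a17* (0.15), *Wfdc2* (0.26), *Mfge8* (-0.03) and *Eva1b* (-0.17) were near 0.

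Within CTAL, the knock-out pools were compared with the WT pools. None of the 10 members passed by edgeR (adjusted p between 0.106 and 0.827), where 0.658% of 11702 genes were higher and 0.564% lower, and 0.256% were higher by a log2 difference of at least 1. At an unadjusted p under 0.05, 6 of 10 were higher in cKO CTAL, against 5.77% of all genes tested. DESeq2 called 2, *Mfge8* (adjusted p = 0.0312) and *Wfdc2* (adjusted p = 0.0416), where it called 1.50% of 11699 genes higher, and limma on log2 TPM called *Mfge8* alone, where it called 0.709% higher. All 10 fitted differences were above 0, from 0.11 ± 0.15 for *Gm44120* to 0.56 ± 0.33 for *Mapk4* (log2, SE), with a median of 0.35 against 0.003 over all genes tested. The smallest adjusted p were those of *Mfge8* (0.32 ± 0.09, SE, adjusted p = 0.106), *Wfdc2* (0.39 ± 0.12, SE, adjusted p = 0.163) and *C130074G19Rik* (0.31 ± 0.10, SE, adjusted p = 0.189). Only *Mfge8* had no overlap between the groups, which 1.85% of all genes tested showed with cKO CTAL higher. This comparison is one term of the difference of genotype effects that the choice of members used, and choosing a larger rise in MTAL favours small values in CTAL.

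**Figure D5:**
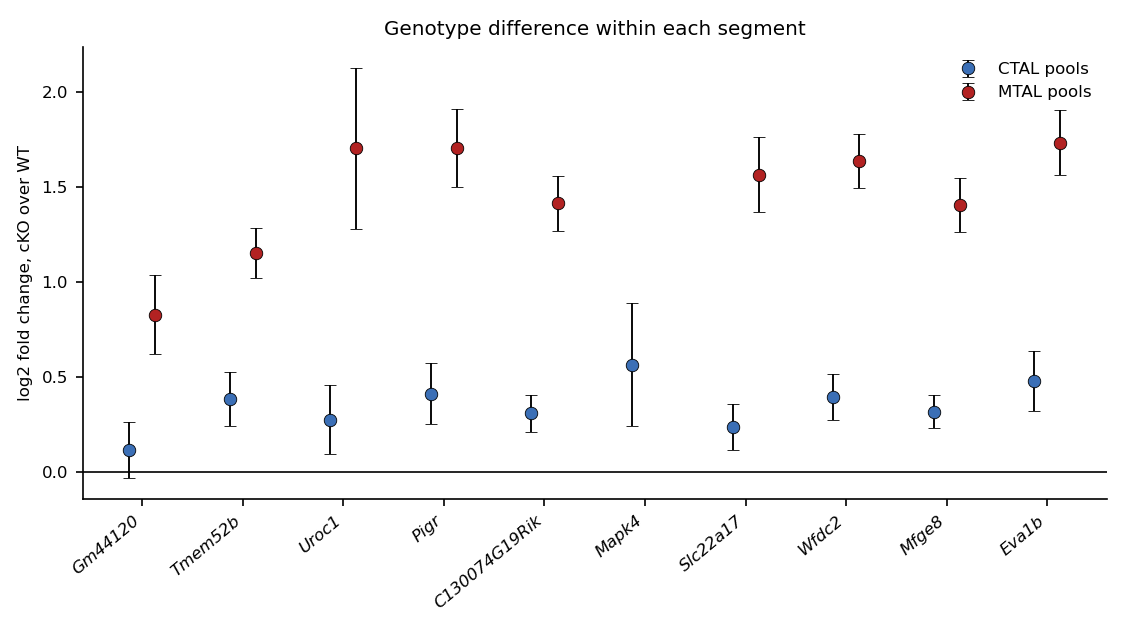
Fitted log2 fold change of cKO over WT (± SE) for each member in CTAL (blue, 5 against 5 pools) and MTAL (red, 3 against 5 pools), in the order of the share reached; *Mapk4* has no MTAL value because it did not pass the filter there. CTAL values ran from 0.11 to 0.56 and MTAL values from 0.83 to 1.73.

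Other genes known from the cortical limb were read from a list of 17. In cKO MTAL, 10 of 14 tested rose and none fell, against 4.44% of all genes higher and 2.57% lower, and 9 of 14 were higher in WT CTAL than in WT MTAL, against 4.10% of all genes. They included *Pth1r*, the parathyroid hormone receptor (54.5 CPM in WT MTAL, 275 CPM in cKO MTAL, log2 difference 2.35 ± 0.19, SE, edgeR adjusted p = 7.52e-06), the transcription factor *Foxq1* (1.83 ± 0.20, SE, adjusted p = 4.76e-05) and *Cldn16* (1.73 ± 0.16, SE, adjusted p = 1.43e-05). In cKO CTAL, 2 of 15 rose (*Pth1r* and *Cldn16*), against 0.658% of all genes, and 2 of 15 were higher in cKO CTAL than in cKO MTAL (*Cldn16* and *Casr*), against 0.631%. Over the 18 pools, genes whose log2 level ran most like the mean of the members, of 12576 compared, included *Ggt1* (r = 0.987), *Cldn16* (r = 0.985), *Casr*, the calcium-sensing receptor (r = 0.983), and *Pth1r* (r = 0.980). These correlations rest mainly on the 4 group levels and are a description. The members themselves ran with their own mean at r between 0.876 (*Eva1b*) and 0.989 (*C130074G19Rik*). Within groups, *Pigr* and *Mapk4* deviated together the most (r = 0.804 over 18 pools), and cKO MTAL replicate 18 and cKO CTAL replicate 2 were high in both. The highest *Eva1b* pool of cKO CTAL was also replicate 2, at 57.9 CPM.

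Markers of other cells moved with some groups, and their part in the members' values was not tested beyond the values given. Of the distal convoluted tubule list, 9 of 9 genes were detected in 3 groups and 8 of 9 in cKO MTAL, where *Pvalb* was at 0, and the summed level was 739 to 1010 CPM in WT CTAL, 1190 to 1720 CPM in cKO CTAL, 399 to 451 CPM in WT MTAL and 653 to 1070 CPM in cKO MTAL. As for the members, WT MTAL was the lowest group. Most of that sum was *Wnk1* (705, 1175, 287 and 637 CPM on average), a kinase gene also used outside that segment. The defining transporter gene *Slc12a3* stood at 1.58 to 2.71 CPM in WT MTAL and at 5.22, 4.25 and 1.78 CPM in cKO MTAL. Its WT CTAL pools spread from 1.92 to 22.4 CPM, with a mean of 10.6 CPM. Of the knock-out CTAL pools, replicate 2 reached 60.2 CPM, while the rest lay between 2.34 and 11.9 CPM. Replicate 2 also had the most *Calb1*, another gene of this list, at 36.4 CPM. Principal cell genes (11 of 11 detected) summed to 251 to 392 CPM in WT CTAL, 227 to 461 CPM in cKO CTAL, 194 to 506 CPM in WT MTAL and 282 to 1250 CPM in cKO MTAL. Intercalated cell genes (9 of 9) summed to 64.4 to 89.2, 63.5 to 221, 24.9 to 119 and 52.8 to 326 CPM in the same order. Tubular injury genes (10 of 10) summed to 1430 to 1700 CPM in WT CTAL, 1810 to 4870 CPM in cKO CTAL, 1080 to 1320 CPM in WT MTAL and 2180 to 9040 CPM in cKO MTAL, mostly *Spp1*. Immune cell genes (9 of 9) summed to 47.4 to 56.7 CPM in WT CTAL, 42.6 to 67.9 CPM in cKO CTAL, 29.1 to 40.7 CPM in WT MTAL and 47.4 to 64.0 CPM in cKO MTAL, so that the WT MTAL pools were the lowest, as for the members. None of the 4 tested passed between MTAL genotypes by edgeR. Endothelial genes (8 of 8) summed to 253 to 542, 208 to 308, 301 to 468 and 168 to 281 CPM in the same order, and 5 of 8 fell in cKO MTAL, against 2.57% of all genes. Thin limb genes summed to 465 to 745, 452 to 546, 811 to 1090 and 747 to 800 CPM, with all 8 detected except *Sptssb*, which was at 0 in WT CTAL. Fibroblast and pericyte genes (8 of 8) summed to 216 to 299 CPM in WT CTAL, 175 to 267 CPM in cKO CTAL, no more than 276 CPM in WT MTAL and 238 to 714 CPM in cKO MTAL, the highest being cKO MTAL replicate 16, above 364 CPM in the next pool. Proximal tubule genes (10 of 10) summed to no more than 183 CPM in any pool. Between MTAL genotypes by edgeR, 3 of 5 tested tubular injury genes and 2 of 7 intercalated cell genes were higher in cKO MTAL. So were 1 of 10 principal cell, 1 of 4 distal convoluted tubule and 1 of 4 proximal tubule genes. The same held for 1 of 6 fibroblast and pericyte genes, against 4.44% of all genes. Of 7 thin limb genes, 1 was higher and 1 lower. Thick limb genes (10 of 10) summed to 85800 to 97400 CPM in WT CTAL, 83800 to 100000 CPM in cKO CTAL, 52100 to 63700 CPM in WT MTAL and 69000 to 81500 CPM in cKO MTAL, and thus also stood lowest in WT MTAL. On average *Umod* stood at 28430 CPM in WT MTAL and 48690 CPM in WT CTAL, and *Egf* at 11170 and 22610 CPM. By contrast, *Slc12a1* (15380 CPM), *Cldn10* (750 CPM) and *Ptger3* (906 CPM) had their highest mean in WT MTAL.

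The members lay on 7 chromosomes, and *Tmem52b* and *Gm44120* were the one pair within 5 kb of each other. RefSeq promoter windows (GRCm38.p6, 250 bases before to 50 bases after the start) were on hand for 8 of 10 members. The 250 bases before the start are shown for a pair of members with a share under 100%, *Tmem52b* and *Pigr*, and for a pair over 100%, *Slc22a17* and *Mfge8*, since the 4 moved in one direction in MTAL to unlike extents; capitals mark a match to any motif searched (*Tmem52b* chr6:129512307-129512556, + strand, *Pigr* chr1:130826434-130826683, + strand, *Slc22a17* chr14:54913133-54913382, - strand, *Mfge8* chr7:79149061-79149310, - strand).
Tmem52b: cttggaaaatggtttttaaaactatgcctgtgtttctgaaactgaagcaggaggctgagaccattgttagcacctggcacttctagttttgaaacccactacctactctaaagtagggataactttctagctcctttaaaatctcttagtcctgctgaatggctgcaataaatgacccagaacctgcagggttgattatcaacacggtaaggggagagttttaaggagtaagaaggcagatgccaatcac
Pigr: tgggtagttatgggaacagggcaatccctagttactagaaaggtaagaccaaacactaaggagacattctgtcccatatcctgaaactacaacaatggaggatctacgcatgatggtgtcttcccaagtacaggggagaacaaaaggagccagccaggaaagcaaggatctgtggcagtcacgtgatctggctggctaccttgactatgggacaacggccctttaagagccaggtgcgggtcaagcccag
Slc22a17: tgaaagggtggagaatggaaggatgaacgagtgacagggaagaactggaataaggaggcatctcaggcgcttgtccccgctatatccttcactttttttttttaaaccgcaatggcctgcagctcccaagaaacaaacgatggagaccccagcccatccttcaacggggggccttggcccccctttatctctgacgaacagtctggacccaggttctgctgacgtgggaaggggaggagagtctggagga
Mfge8: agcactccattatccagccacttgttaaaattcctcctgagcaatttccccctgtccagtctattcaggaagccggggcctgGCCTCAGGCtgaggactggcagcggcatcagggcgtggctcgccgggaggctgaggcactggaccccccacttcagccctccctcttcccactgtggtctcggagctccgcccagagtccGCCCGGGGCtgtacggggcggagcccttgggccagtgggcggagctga
The motifs were those of FOX (TGTTTAC), IRX (ACATGT), ESRR (TCAAGGTCA), AP-2 (GCCNNNGGC) and CRE (TGACGTCA) factors, the HNF1 hexamer (GTTAAT), the full HNF1 palindrome and the VDR direct repeat, on both strands. *Mfge8* held the AP-2 letters at 2 places (GCCTCAGGC and GCCCGGGGC), *Wfdc2* held them at 1, *Uroc1* held the IRX letters, which read alike on both strands, and *Eva1b* held the HNF1 hexamer, which is also part of the full palindrome. No other match was found in the 8 windows, and no motif was held by more than 2 of them. Of all 32851 windows, 16.6% held the AP-2 letters, 7.10% the HNF1 hexamer, 5.28% the IRX letters, 3.65% the FOX letters, 1.79% the CRE and 0.423% the ESRR letters. The GC content of the 250 bases ran from 42.4% (*Tmem52b*) to 65.2% (*Mfge8*), against a median of 52.4% over all windows.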

How the data were processed

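Pools of microdissected tubules were sequenced as paired-end, strand-specific poly-A libraries. The authors trimmed the reads, mapped them to mm10 and quantified them per gene with DRAGEN (the labels name Trimmomatic for trimming and the methods fastp). The deposited tables hold estimated counts, which are not all whole numbers, and TPM, as deposited by the authors; the strand setting of the counting is not given in the sources used here.

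Counts were rounded and scaled by TMM factors, and genes reaching 3 CPM in 5 or more pools (3 or more with cKO MTAL among the groups) were tested for each pair of groups with edgeR 4.0.16 (quasi-likelihood, Benjamini-Hochberg adjustment over all genes tested, threshold 0.05). The difference of genotype effects was fitted over 18 pools. TPM values, deposited by the authors, served for levels between genes and for limma 3.58.1 on log2(TPM + 0.5). DESeq2 1.42.0, other filters and scales, single pools left out, both readings of the conflicting label and pools without *Xist* were alternatives; the last was added after seeing the data. The tests were checked on simulated data. Shares were computed from group mean CPM.

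Members and lists were chosen with earlier results of these data known. Genes named were all 10 members, list genes that passed the MTAL genotype or the WT segment test, *Cldn10*, *Slc12a1*, the 5 genes nearest in pattern (one named gene is not reported here), and neighbours within 5 kb; others were named after their values were seen. Each pool came from 1 mouse, and every pair of pools within a group differed beyond sampling noise. Annotation was GENCODE M21 on GRCm38 (the authors' "gencode v25", same build as mm10), which held 99.5% of the gene IDs. Counts were lowest for *Uroc1* (16 to 95 in the WT MTAL pools) and *Mapk4* (14 to 53 in the WT MTAL pools).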

Additional observations from a re-analysis of the deposited data

How the results depend on the processing

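In cKO CTAL against WT CTAL, where edgeR called 0 of 10 members, DESeq2 called 2 with either scaling (TMM or its own size factors) and limma on log2 TPM called 1; with single pools left out the count stayed at 0. In cKO CTAL against cKO MTAL, where edgeR called 5, limma on log2 TPM called 2, the count without the pools with *Xist* was 3, and with single pools left out it ran from 2 to 6. *Gm44120* changed sign in cKO CTAL against WT CTAL without cKO CTAL replicate 9 (-0.009; -0.009 to 0.206 over single pools left out) and without the pools with *Xist* (-0.037), and *Mfge8* in cKO CTAL against cKO MTAL without a filter (0.023), in one fit of all 18 pools (0.003) and over single pools left out (-0.129 to 0.035). Neither passed a test there. The median segment difference kept within the knock-out, 33.4% from log2 fold changes, was 72.1% on linear means and 59.3% on linear means without the pools with *Xist*. Without those pools, WT MTAL was replicate 13 alone. The median share reached held between 53.8% and 92.4% over all its alternatives. The causes of these changes were not tested. Counts over all genes moved as well. Between CTAL genotypes 143 genes passed by edgeR, 360 by DESeq2 and 92 by limma. There the count by edgeR was 75 to 188 with single pools left out and 29 without the pools with *Xist*. Between cKO segments 211 passed by edgeR, 822 or 775 by DESeq2 and 61 by limma. There edgeR called 508 without a filter, 688 in one fit of all pools and 388 with WT CTAL replicate 1 counted as cKO. With single pools left out, 104 to 835 passed. No paired analysis was possible because the groups share no replicate numbers. With 3 cKO MTAL pools, values that rest on one of them, as for *Mapk4* and *Pigr*, stay imprecise. *Uroc1* and *Mapk4* were near 1 CPM in WT MTAL, so that small counts entered their fold changes.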
